A study of Mus musculus with 4 samples.

Results

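The 10 transcription factors of retinal ganglion cell (RGC) fate described here are *Atoh7*, *Pou4f1*, *Pou4f2*, *Isl1*, *Ebf1*, *Ebf3*, *Sox4*, *Sox11*, *Sox12* and *Klf7*. They were selected by gene symbol from the 52550 genes counted in an anti-YTHDF2 RNA immunoprecipitation (RIP), a pulldown of YTHDF2 together with the RNA it holds. All 4 libraries came from the retina of wild type C57BL/6 mice at P0, the day of birth, dissociated with papain. Each of 2 replicates gave an input library, taken before the pulldown, and an anti-YTHDF2 RIP library, and no treatment or mutation separates the groups. A pulldown with control IgG was not analysed here, so that RNA held by the beads and RNA held by YTHDF2 cannot be told apart. The tissue was whole retina, not purified RGCs, and a lower level in bulk RNA cannot tell fewer cells from less RNA per cell.

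RGCs are the first neurons born in the retina, and at P0 they share the tissue with dividing progenitors, amacrine cells and photoreceptor precursors. *Atoh7* encodes the basic helix-loop-helix factor that makes progenitors competent to become RGCs. *Pou4f2* and *Isl1* act downstream of it to drive RGC differentiation, *Pou4f1* and the EBF factors shape later maturation and subtypes, the SoxC factors *Sox4*, *Sox11* and *Sox12* act in neuronal differentiation, and *Klf7* acts in axon growth. YTHDF2 is a reader of N6-methyladenosine (m6A) in mRNA and promotes the decay of the transcripts it binds. The comparison of RIP with input asks which of these transcripts were recovered with YTHDF2 above or below their share of the input RNA.

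None of the 10 factors, which all passed the filter on low counts, was called in either direction in the RIP by the main fit. A transcript was called enriched where its RIP level was at least 2-fold the input level (log2 fold change of 1 or more) with an unadjusted p under 0.05 in edgeR's quasi-likelihood test, and called depleted at -1 or lower. Across the 13632 genes tested, 9.43% were called enriched and 17.2% depleted, against 0 of 10 factors for each. The number of factors with an unadjusted p under 0.05 was also 0 by this test, a limit that 29.7% of all tested genes passed. DESeq2 called 0 factors, with 5.24% of its 23345 genes enriched and 9.41% depleted, a set without the filter on low counts. With edgeR's exact test on the 13632 genes, 0 factors were called, beside 10% enriched and 18.2% depleted. With limma on FPKM, 0 factors were called after log2(FPKM + 0.1), which called 12.4% and 14.8% of genes, and 0 after log2(FPKM + 1), which called 2.66% and 7.28%. Scaling by library size alone called 1 factor enriched (*Atoh7*), with 17.3% of genes enriched and 12.7% depleted. A correction for trends on GC content and transcript length called 1 enriched (*Atoh7*) and 1 depleted (*Klf7*). That correction called 9.32% of genes enriched and 11.4% depleted. In the main fit, the median log2 fold change of the factors was -0.082, beside -0.052 for all tested genes.

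The precision behind these values differed from factor to factor. The 95% interval of the log2 fold change included 0 for each of the 10 factors, so that a p above the limit does not show equal levels. It lay below 1 for 6 factors (*Pou4f1*, *Pou4f2*, *Isl1*, *Ebf1*, *Ebf3* and *Klf7*) and above -1 for 4 (*Atoh7*, *Ebf1*, *Ebf3* and *Sox4*). Only *Ebf1* and *Ebf3* had an interval within both limits, from -0.95 to 0.95 and from -0.91 to 0.77. The widest interval was that of *Sox12*, from -2.22 to 1.90, or from 0.215-fold to 3.74-fold. With 2 libraries against 2, each fit leans on the spread that edgeR shares across genes. The labels do not say whether replicates came from separate animals, and the p-values measure only the spread between these samples.

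**Figure D1:**
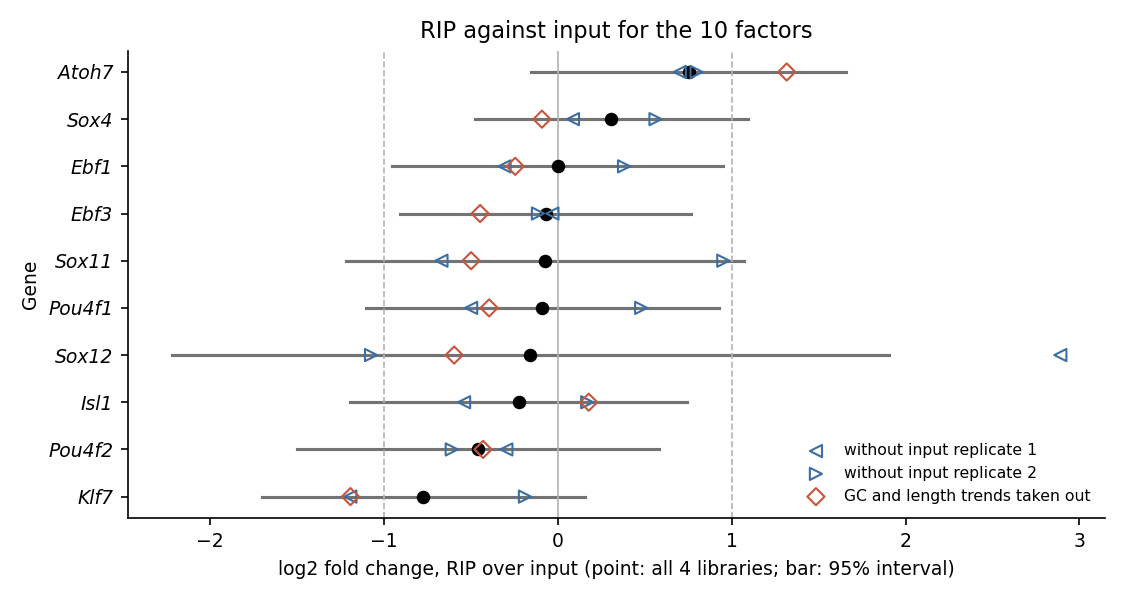
Log2 fold change of RIP over input for the 10 factors (black points, edgeR fit on all 4 libraries, bars 95% intervals), with open symbols for the fits without input replicate 1, without input replicate 2 and with GC and length trends taken out. All bars cross 0, and the values for *Sox12* without one input, 2.89 and -1.07, lie farthest apart.

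The libraries held 19530226 to 39499994 counts, of which protein-coding genes took 2083594 to 4175459. The ribosomal RNA locus took 55.0% to 87.8% of the counts and a larger share in the RIP libraries, so that levels were scaled by TMM factors (0.845 to 1.29) and a fold change is read against most other transcripts, not as an amount of bound RNA. The factors had between 31 counts (*Pou4f2*) and 2867 counts (*Sox4*) in a library. The 3 SoxC factors took 78.2% to 85.6% of the counts of the 10 factors in each library. On the CPM scale (counts relative to the library size after TMM scaling), the 10 factors summed to 191 and 204 in the inputs against 206 and 197 in the RIP libraries, so that the groups overlapped.

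**Figure D2:**
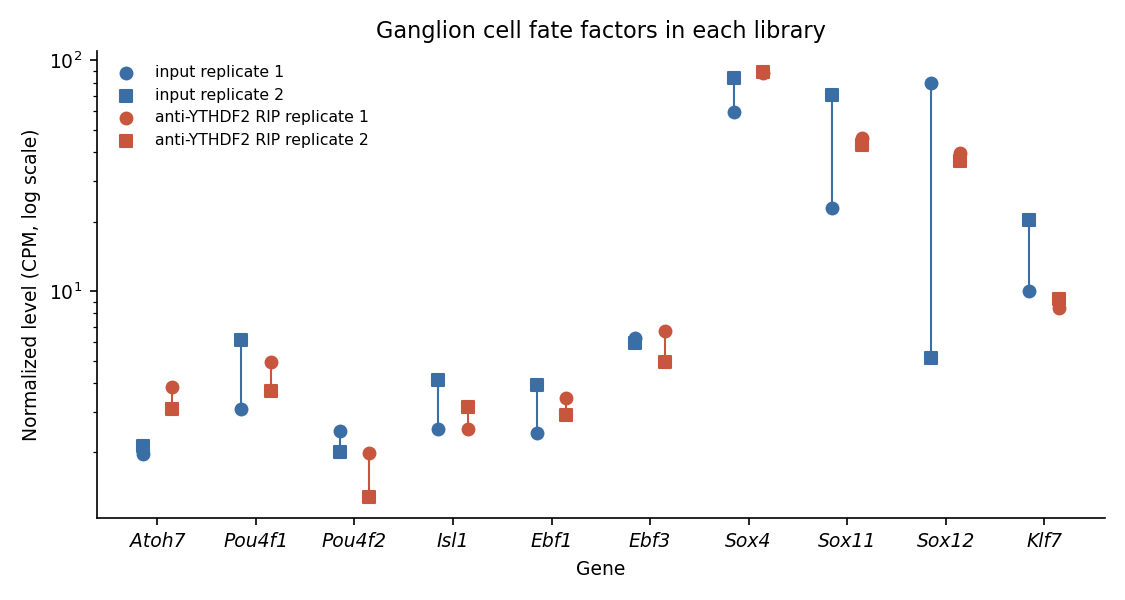
Level of each factor in CPM on a log scale in the 2 input (blue) and 2 anti-YTHDF2 RIP (red) libraries, lines joining the replicates of a group. The RIP replicates of *Sox12* sit at 39.6 and 36.4, between inputs at 79.7 and 5.13.

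Among the factors that start and drive RGC differentiation, *Atoh7* (ENSMUSG00000036816, chr10:63099651-63101279, plus strand of GRCm38, as for all coordinates here) had the highest fold change. It was measured at 1.98 and 2.13 CPM in input replicates 1 and 2 and at 3.84 and 3.07 CPM in RIP replicates 1 and 2. Both RIP libraries thus lay above both inputs, as they did for 29.6% of all tested genes. The means were 2.05 ± 0.104 CPM in the inputs and 3.46 ± 0.543 CPM in RIP (SD, n = 2), with a log2 fold change of 0.75 ± 0.398 (SE) and an adjusted p of 0.243 in the edgeR fit. When each library was corrected for smooth trends on GC content and on transcript length, *Atoh7* was called enriched (log2 fold change 1.32, edgeR adjusted p = 0.0560), in a fit that called 9.32% of genes enriched. It was called as well with a replicate block beside the trends (1.34, edgeR adjusted p = 0.0825), where 9.02% of genes were called enriched and 10.9% depleted, and with scaling by library size alone (1.10, edgeR adjusted p = 0.152), where 17.3% were called enriched and 12.7% depleted. Its adjusted p ranged from 0.0560 to 0.445 over the 12 alternative settings. With the trends taken out, the value was 0.95 and not called without input replicate 1, and it was 1.73 without input replicate 2.

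*Pou4f2* (ENSMUSG00000031688, chr8:78433010-78436645, minus strand), a POU-homeodomain factor, was measured at 2.49 and 2.01 CPM in the inputs against 1.98 and 1.29 CPM in the RIP libraries. The RIP libraries lay below both inputs, as for 31.3% of tested genes, but RIP replicate 1 was next to input replicate 2. The log2 fold change was -0.46 ± 0.457 (SE), with an adjusted p of 0.546 by edgeR. Its relative *Pou4f1* (ENSMUSG00000048349, chr14:104461676-104467999, minus strand) was at 3.09 and 6.12 CPM in the inputs against 4.95 and 3.70 CPM in the RIP libraries. The RIP values fell inside the span of the inputs, with a log2 fold change of -0.090 ± 0.446. *Isl1* (ENSMUSG00000042258, chr13:116298281-116309689, minus strand), a LIM-homeodomain factor that acts with *Pou4f2*, was at 2.52 and 4.14 CPM in the inputs against 2.53 and 3.16 CPM in the RIP libraries. Its RIP values also lay inside the span of the inputs, and its log2 fold change was -0.23 ± 0.425.

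The EBF factors, which carry a helix-loop-helix domain, had the fold changes nearest to 0. *Ebf1* (ENSMUSG00000057098, chr11:44617317-45008091, plus strand) was measured at 2.43 and 3.93 CPM in the inputs against 3.45 and 2.91 CPM in the RIP libraries. Its group means were 3.18 ± 1.06 CPM in the inputs against 3.18 ± 0.380 CPM in the RIP libraries (SD, n = 2), with a log2 fold change of -0.0013 ± 0.418 (SE). *Ebf3* (ENSMUSG00000010476, chr7:137193673-137314445, minus strand) was at 6.29 and 5.97 CPM in the inputs against 6.73 and 4.94 CPM in the RIP libraries. Here the inputs fell inside the span of the RIP libraries, and the log2 fold change was -0.070 ± 0.367 (SE). *Ebf1*, *Ebf3*, *Sox4* and *Klf7* overlap annotated noncoding genes on the opposite strand, and *Klf7* also overlaps a microRNA gene on its own strand. No overlapping gene of these 4 had more than 4 counts in a library.

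*Klf7* (ENSMUSG00000025959, chr1:64029447-64122282, minus strand), a zinc finger factor, had the lowest fold change. It was measured at 10.04 and 20.2 CPM in the inputs against 8.44 and 9.26 CPM in the RIP libraries. The RIP libraries lay below both inputs and close to input replicate 1. The log2 fold change was -0.77 ± 0.408 (SE), with an adjusted p of 0.241 by edgeR. *Klf7* was called depleted with GC and length trends taken out (log2 fold change -1.19, edgeR adjusted p = 0.0176), where 11.4% of all genes were, and the adjusted p ranged from 0.0176 to 0.654 over the 12 alternatives. With the replicate block beside the trends, *Klf7* was called as well (-1.19, edgeR adjusted p = 0.0359). In fits with a lone input and no trend correction, leaving out input replicate 1 gave -1.19, and leaving out input replicate 2 gave -0.19. Once the trends were taken out, the values were -1.31 and -1.08 in the same order.

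The SoxC factors, which share an HMG-box domain and each have a single exon in their longest annotated transcript, held most of the counts, and *Sox11* and *Sox12* had the largest disagreement between the inputs. *Sox4* (ENSMUSG00000076431, chr13:28948919-28953713, minus strand) was measured at 59.8 and 83.5 CPM in the inputs against 88.4 and 88.9 CPM in the RIP libraries. Both RIP libraries were above both inputs, though close to input replicate 2, and the log2 fold change was 0.31 ± 0.345 (SE) with an adjusted p of 0.598 by edgeR. With GC and length trends taken out, the value for *Sox4* was -0.091. *Sox11* (ENSMUSG00000063632, chr12:27334264-27342574, minus strand) was at 22.9 and 70.9 CPM in the inputs against 46.1 and 43.0 CPM in the RIP libraries. *Sox12* (ENSMUSG00000051817, chr2:152393611-152398063, minus strand) was at 79.7 and 5.13 CPM in the inputs, from 2660 and 176 counts, and at 39.6 and 36.4 CPM in the RIP libraries. For both genes the RIP libraries lay close to each other and between the inputs, and *Sox11* was high in input replicate 2 while *Sox12* was high in input replicate 1. Their log2 fold changes over all libraries were -0.074 ± 0.501 and -0.16 ± 0.905.

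The direction for *Sox11* and *Sox12* rested on which input was used. Without input replicate 1, *Sox12* was called enriched at 2.89 (log2 scale, edgeR adjusted p = 7.67e-07), and without input replicate 2 it was called depleted at -1.07 (edgeR adjusted p = 0.000510). *Sox11* was at -0.67 without input replicate 1 (edgeR adjusted p = 0.0121) and at 0.95 without input replicate 2 (edgeR adjusted p = 0.00183), short of the 2-fold limit both times. In these fits the lone input was assumed to vary like the RIP libraries. Without input replicate 1 and 2 respectively, 12.3% and 15% of genes were called enriched, and 17.3% and 18.7% depleted. Between the inputs, the summed level of the SoxC factors (162 and 160 CPM) varied less than that of each of them. It was 174 and 168 CPM in the RIP libraries, where *Sox4* alone varied less than the sum. Summed over the other 7 factors, the inputs held 28.8 and 44.5 CPM and the RIP libraries 31.9 and 28.3 CPM.

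The SoxC transcripts resemble one another near the end of the coding sequence, and that stretch is printed because the pentamer GGACT, a common form of the m6A consensus, lies in it in *Sox11* and *Sox12* but not in *Sox4*. Each run below covers 30 bases of the transcript strand from GENCODE M21, from 56 to 27 bases before the last base of the stop codon, with GGACT in capitals.
Sox4: atgatctcgggagattggctggagtccagc
Sox11: atgatcgcgggGGACTggctggaggcgaac
Sox12: atgatcgcaggGGACTggcgctcgtctagt
These are chr13:28951726-28951755, chr12:27341248-27341277 and chr2:152396781-152396810, all on the minus strand and coding. *Sox4* shared 24 of 30 bases with *Sox11*, and *Sox12* shared 21. The GGACT of *Sox4* nearest to its stop codon lies 82 nt upstream, within the 30 bases at chr13:28951766-28951795. Distances run from the A of the pentamer to the last base of the stop codon.
Sox4, nearest to the stop codon: cttcgaattcccGGACTattgcacgcccga
This pentamer was found within 100 nt of the stop codon in 4 factors (*Ebf3* at 39 nt, *Sox11* and *Sox12* at 43 nt, *Sox4* at 82 nt) and in 21.2% of the 11953 tested protein-coding transcripts. At least 1 copy anywhere was found in 9 factors and in 93.9% of those transcripts, the exception being *Ebf1*. A match is a string of letters and was not measured as a methylated or bound site.

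Other features of the transcripts varied widely among the 10 factors. Per kb of transcript, GGACT occurred 2.69 times in *Sox12* and 2.46 times in *Atoh7*, at percentiles 97.4 and 95.9 of tested protein-coding transcripts, and 0.312 times in *Pou4f2*, beside a median of 1.03. For *Atoh7*, the highest fold change of the 10, the GGACT nearest to the stop codon lies in the coding sequence 142 nt upstream of it. The run printed below is chr10:63100449-63100478 on the plus strand. For *Klf7*, the lowest, the nearest GGACT lies in the 3′ UTR 137 nt downstream, within chr1:64035561-64035590 on the minus strand. Both are shown with 12 bases before and 13 after the pentamer.
Atoh7: cgaagccgagcgGGACTgggtcgggctgcg
Klf7: aggcagagggctGGACTtcaggcggggaga
Transcript lengths ran from 1629 nt in *Atoh7* (percentile 11.5) to 8311 nt in *Sox11* (percentile 94.1), around a median of 3589 nt. The GC content ran from 43.1% in *Ebf1* to 59.9% in *Sox12*, which was at percentile 95.2. A single exon was annotated for 4 factors (*Atoh7*, *Sox4*, *Sox11* and *Sox12*) and for 6.29% of tested protein-coding genes, and the median log2 fold change of those 752 genes was -0.35.

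The replicates of the factors were closer to each other in the RIP libraries than in the inputs for 7 of the 10, and for 70.3% of the 13108 tested genes with a count in each library. The median absolute difference between replicates was 0.71 on the log2 scale in the inputs against 0.28 in the RIP libraries, beside 0.62 and 0.29 over those genes. The input pair differed by more than counting error (1.96 SE of the log ratio) for 7 factors, and the RIP pair did so for 2, *Pou4f1* and *Ebf3*, while over those genes the shares were 66.2% and 29.3%. Counting error leaves out the variation between separate samples, and on these counts the factors lay near all tested genes. The ratio of the higher to the lower input was 15.6 for *Sox12*, 3.09 for *Sox11*, 2.02 for *Klf7* and 1.98 for *Pou4f1*, and it was 1.07 for *Atoh7* and 1.05 for *Ebf3*. Input replicate 2 minus replicate 1 was -3.96 for *Sox12* on the log2 scale, the lowest of the 6858 genes with 50 counts or more in each library. The next lowest was *Arrb1*, with -2.14. Over the 10435 genes with 50 counts or more in at least one input, 7 genes had a lower ratio than *Sox12*.

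The inputs differed with GC content across all genes, and the factors lay on both sides of the medians for their GC content. Median differences of input replicate 2 minus replicate 1 were 0.87, 0.15, -0.31, -0.53 and -0.59 on the log2 scale in 5 bins of protein-coding genes from low to high GC content (1327 or 1328 genes each). The RIP replicates showed medians between -0.022 and -0.0021 over the same bins. *Ebf1* had a GC content in bin 1, *Isl1*, *Sox11* and *Klf7* in bin 2, *Atoh7* in bin 4 and *Sox12* in bin 5, and the other 4 factors in bin 3. Relative to the median of its bin, the difference between the inputs was -3.37 for *Sox12*, 1.48 for *Sox11*, 1.29 for *Pou4f1*, 0.86 for *Klf7*, 0.79 for *Sox4*, 0.63 for *Atoh7* and 0.56 for *Isl1*, and it was 0.23 for *Ebf3*, -0.18 for *Ebf1* and -0.0025 for *Pou4f2*. The differences of *Pou4f1*, *Sox4* and *Atoh7* between the inputs (0.99, 0.48 and 0.10) thus had the opposite sign to the medians of their bins. Marker lists differed between the inputs too, with summed levels of 217 and 207 CPM for RGC markers, 1026 and 747 CPM for progenitor markers and 85.3 and 125 CPM for amacrine and horizontal cell markers. The part of GC content or of these cell types in the values of single factors was not tested.

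**Figure D3:**
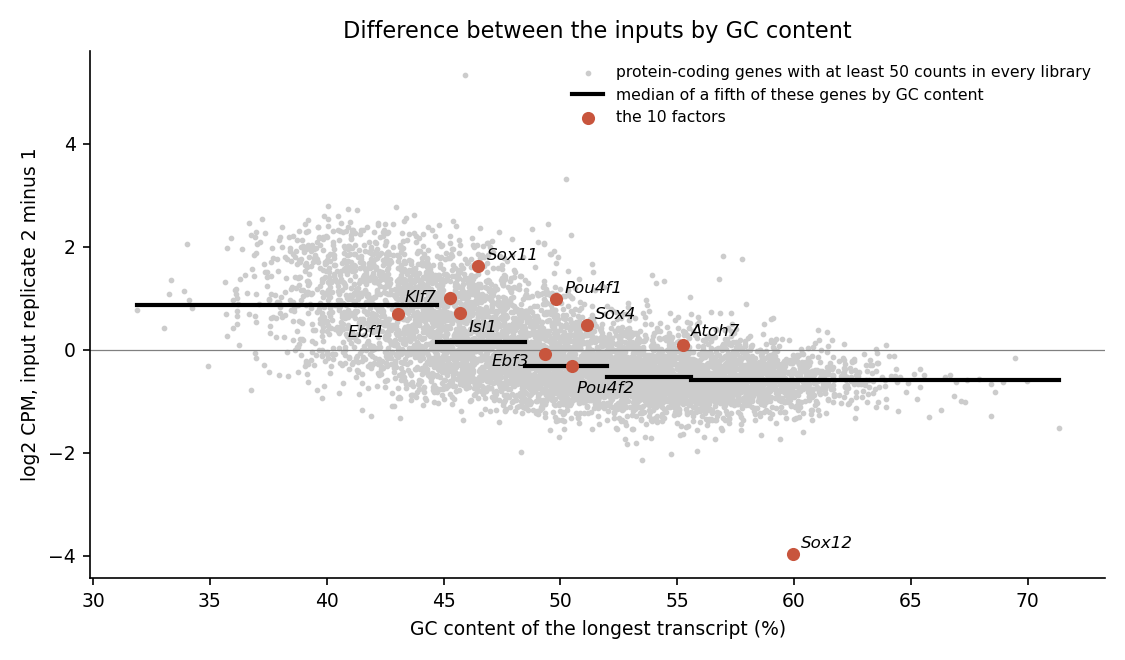
Difference between the inputs (log2 CPM, replicate 2 minus replicate 1) against the GC content of the longest transcript for protein-coding genes with 50 counts or more in each library (grey), with the median of each of 5 bins (black bars) and the 10 factors (red, *Pou4f2* below that count minimum). The bars step from 0.87 at low GC content to -0.59 at high GC content, and *Sox12* lies far below them at -3.96.

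Ratios of related factors within one library do not depend on how libraries are scaled. The count of *Pou4f1* over *Pou4f2* was 1.24 and 3.04 in the inputs against 2.5 and 2.87 in the RIP libraries. *Ebf3* over *Ebf1* was 2.59 and 1.52 in the inputs against 1.95 and 1.70 in the RIP libraries. *Sox11* over *Sox4* was 0.383 and 0.849 in the inputs against 0.522 and 0.483 in the RIP libraries. For all 5 pairs formed within the POU4, EBF and SoxC families, both RIP values fell between the inputs. The widest gap was that of *Sox12* over *Sox11*, with 3.48 and 0.0723 in the inputs against 0.859 and 0.847 in the RIP libraries. The ratios are descriptive, since an exact permutation test of 2 against 2 cannot give a two-sided p below 0.333.

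**Figure D4:**
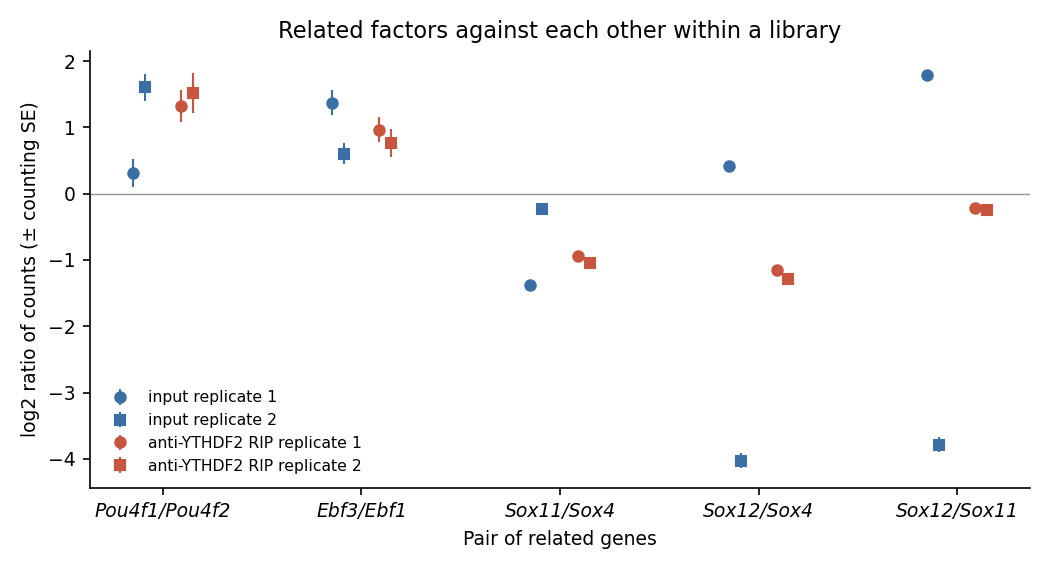
Log2 ratio of the counts of 2 related factors within each library, inputs in blue and RIP in red, bars showing the counting SE. The RIP replicates are at most 0.20 apart for each pair, while the inputs are 0.77 to 5.59 apart.

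Levels between genes were compared in FPKM, which takes gene length into account. *Sox4* was highest in 3 of the 4 libraries, at 10.01 and 15.8 FPKM in the inputs against 21.9 and 16.5 FPKM in the RIP libraries. *Sox12* was above it in input replicate 1, with 14.4 FPKM, but stood at 1.04 FPKM in input replicate 2 and at 10.6 and 7.26 FPKM in the RIP libraries. *Sox11* was at 2.21 and 7.74 FPKM in the inputs against 6.60 and 4.59 FPKM in the RIP libraries. The mean input level was 12.9 ± 4.11 FPKM for *Sox4*, 7.71 ± 9.43 FPKM for *Sox12* and 4.98 ± 3.91 FPKM for *Sox11* (SD, n = 2), so that *Sox12* and *Sox11* did not differ from each other beyond their spread. *Klf7* (1.62 ± 0.896 FPKM) and *Atoh7* (1.07 ± 0.145 FPKM) followed in the inputs, with overlapping values. *Pou4f1*, *Isl1*, *Pou4f2* and *Ebf3* had mean input levels between 0.565 and 0.856 FPKM, and *Ebf1* was lowest in each library, at 0.200 to 0.410 FPKM.

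Genes that act with these factors in RGC specification, or against it, were described as a network list of 28 factors, of which *Tbr1* and *Wt1* did not pass the filter on low counts. Of the 26 tested, 1 was called enriched (3.85%, beside 9.43% of all tested genes) and 5 depleted (19.2%, beside 17.2%). Their median log2 fold change was -0.18. At an edgeR adjusted p under 0.05, 0 were higher and 2 lower, beside 3.48% and 9.78% of all tested genes. *Onecut1*, a factor of horizontal cell and RGC development, had 117 and 346 counts in the inputs against 32 and 42 in the RIP libraries (log2 fold change -2.17, edgeR adjusted p = 0.0374). *Hes1*, a Notch effector that keeps progenitors undifferentiated, had 852 and 549 counts in the inputs against 201 and 152 in the RIP libraries (-1.54, edgeR adjusted p = 0.0322). The RIP counts of both genes lay far below those of the inputs. The call of *Hes1* was lost with GC and length trends taken out (-0.65, edgeR adjusted p = 0.121) and with the replicate block beside them (-0.66, edgeR adjusted p = 0.154), in a range of 0.00301 to 0.163 over 12 alternatives. *Dlx2* and *Barhl2* were called depleted too, at -1.81 and -1.21, with edgeR adjusted p-values of 0.0673 and 0.0912. *Dlx2* was called in 10 of the 12 alternatives and *Barhl2* in 6. *Barhl2* was not called with the trends taken out (-0.88), with library size alone (-0.82) or in any FPKM setting. *Tbx20* was called enriched at 1.53 (edgeR adjusted p = 0.161) from 12 or 13 counts in the inputs against 31 and 22 in the RIP libraries, and was not called by DESeq2, with the replicate block (1.51, edgeR adjusted p = 0.255) or with the trends taken out (1.06).

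The family relatives, 26 POU4, LIM, EBF, KLF and SOX genes outside the 10 factors, had 22 tested members. Of these, 3 were called enriched (13.6%, beside 9.43% of all tested genes) and 2 depleted (9.09%, beside 17.2%), with a median log2 fold change of 0.31. *Klf13*, a zinc finger relative of *Klf7*, had 1066 and 774 counts in the inputs against 2675 and 2380 in the RIP libraries (log2 fold change 1.91, edgeR adjusted p = 0.0117). *Klf11* had 99 and 149 counts in the inputs against 275 and 264 in the RIP libraries (1.58, edgeR adjusted p = 0.0279). Both remained called in each of the 12 alternatives and whichever library was left out. *Sox5* was called enriched at 1.72 (edgeR adjusted p = 0.0972). *Sox2*, a factor of retinal progenitors, had 458 and 479 counts in the inputs against 128 in each RIP library (-1.41, edgeR adjusted p = 0.0290), and it was not called with GC and length trends taken out (-0.95) or with the replicate block beside them (-0.93). *Klf4* had 17 counts in each input and 0 in both RIP libraries, which made it at least 4.13-fold lower at a floor of 3 counts per library, a bound that covers counting error only. With each library left out in turn, *Tbx20* was called in 0 of 4 edgeR fits, *Barhl2* in 1 (without input replicate 2), *Sox2* in 2, and *Onecut1*, *Dlx2*, *Hes1* and *Sox5* in 3.

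The labelled tissue was checked with markers of retinal cell types, which also describe what else the samples held. Of 21 tested RGC markers, 0 were called enriched and 6 depleted by edgeR (28.6%, beside 17.2% of all tested genes). DESeq2 also called 0 of these 21 enriched and 6 depleted, in a fit that called 9.41% of its genes depleted. The median log2 fold change of the RGC markers by edgeR was -0.71. Their summed levels were 217 and 207 CPM in the inputs against 127 and 120 CPM in the RIP libraries. Their members *Sncg* (-3.43), *Gap43* (-2.29) and *Elavl3* (-1.58) were called depleted, while *Tubb3*, a neuronal tubulin, was at -0.10. Another 7 of the 21 lay above 0, up to 0.73, and 6 in all had an unadjusted p under 0.05 by edgeR. Of 11 progenitor markers 4 were called depleted (36.4%), *Hes1* and *Sox2* among them, and *Ccnd1*, the one with the highest FPKM, was at -0.30 and not called. Of 7 tested photoreceptor precursor markers 0 were called by edgeR or DESeq2 and 4 lay above 0, with a median of 0.19. *Crx* at 0.89 and *Prdm1* at 0.83 had an unadjusted p under 0.05 by edgeR, while *Nrl* was at 0.19 and *Otx2* at -0.39. Of 10 amacrine and horizontal cell markers 1 was depleted (10%, *Tfap2b* at -1.13). Non-neural markers summed to 4.83 to 6.56 CPM in each library over 15 genes. Of the 6 tested, edgeR called 1 enriched (16.7%, beside 9.43% of all tested genes), *Pdgfra* at 1.08, and DESeq2 called 0. Over the 15 non-neural genes, 8 and 7 were at 0 counts in input replicates 1 and 2, and 9 in each RIP library. The lens crystallins *Cryaa*, *Cryba2* and *Crygs* and the pigment epithelium genes *Rpe65*, *Pmel* and *Tyr* were at 0 counts in all 4 libraries. *Cryba1*, another crystallin of the list, is not reported here. The part of these cell types in the levels of the 10 factors was not tested.

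**Figure D5:**
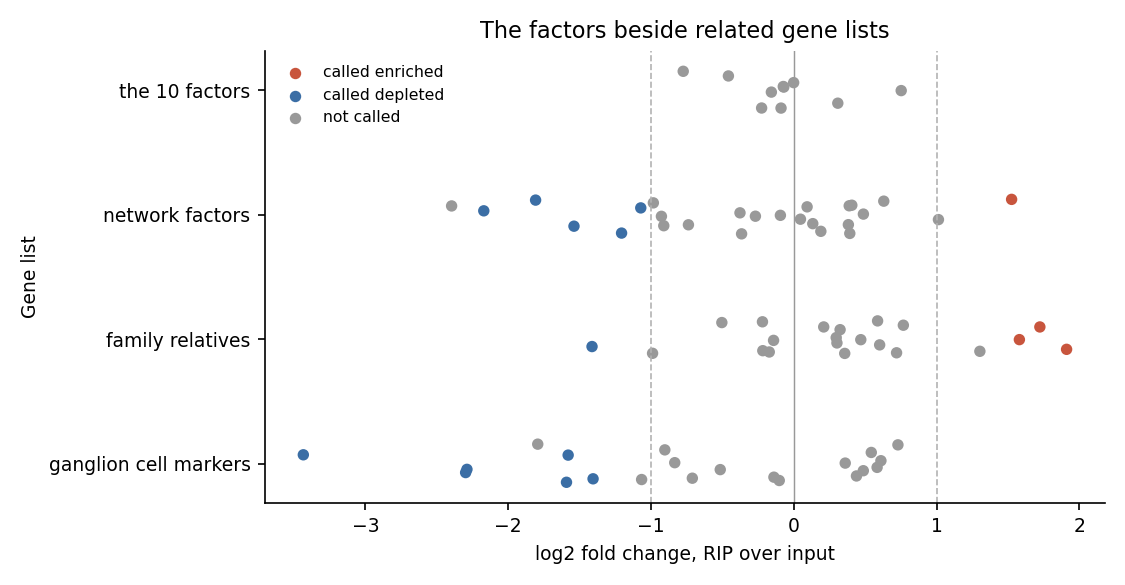
Log2 fold change of RIP over input (edgeR) for each tested gene of the 10 factors, the network factors, the family relatives and the RGC markers, coloured by call, with dashed lines at the 2-fold limits. *Klf4*, with 0 counts in both RIP libraries, is left out. The 10 factors lie between -0.77 and 0.75 with no call, and the RGC markers reach down to -3.43.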

How the data were processed

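RNA immunoprecipitation and input libraries of P0 retina were prepared with a stranded TruSeq kit. The submitters' processing notes name STAR 2.5, HTSeq and GRCm38, and the annotation release and the strand setting of the counting are not given in the sources used here. The authors deposited raw read counts per gene and FPKM values, which scale those counts by gene length and library size. No per-sample column was left unused.

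The members and the gene lists were chosen with earlier results of these data known. The main fit used edgeR 4.0.16 in R 4.3.3 on genes kept by filterByExpr (10 counts and a total of 15 at the least), with TMM scaling, glmQLFit and glmQLFTest. The Benjamini-Hochberg adjustment ran over the 13632 tested genes. CPM values are counts relative to the TMM-scaled library size. Intervals cover 95%. The fit was tested on simulated counts, with 13023 genes tested and 191 of them changed. Of these 191, 86.9% were called (90.8% of those changed by log2 2 and 82.8% of those changed by log2 1.5). Among the unchanged genes, 3.91% were called. An adjusted p under 0.05 was reached by 35.6% of the changed genes. Changes as small as those of the 10 factors were not tested in this way. Transcript features came from the longest transcript of each gene in GENCODE M21 (GRCm38), where 52403 of 52550 identifiers were found.

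Replicate numbers came from the sample labels, and by the series design an input and a RIP library with the same number belong to one replicate. The deviations of same-numbered libraries had a Pearson r of -0.028 across all tested genes, which are not independent replicates. The main fit had no replicate term, and a fit with one was an alternative. The other alternatives were scaling by library size alone, TMM without small noncoding, ribosomal and mitochondrial genes, DESeq2 1.42.0, edgeR's exact test, a count filter of 10 in each library or none, limma 3.58.1 on FPKM (mean of at least 0.1) as log2(FPKM + 0.1), also unfiltered, or with a pseudocount of 1, a correction of each library for smooth trends on GC content and on length (mgcv 1.9.3, basis size 8), and each library left out in turn. The trends with an input left out were added after seeing the data.

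The genes named are the 10 factors, every called gene among the network factors and family relatives (at most 6 per list and direction), and at most 4 genes of each marker list by mean FPKM. *Arrb1* and the untested or uncalled genes named beside a list were chosen after their values were seen. Some genes that the rule names are not reported here. Marker lists covered ganglion cells, progenitors, photoreceptor precursors, amacrine and horizontal cells, and non-neural cells.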

Additional observations from a re-analysis of the deposited data

How the results depend on the processing

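Of the 10 factors, 0 were called in either direction in the main test and 0 under TMM without small noncoding genes, DESeq2, edgeR's exact test, both count filters, the replicate block and each FPKM setting. Scaling by library size alone called 1 enriched (*Atoh7*, 1.10), and it moved the median of all genes from -0.052 to 0.27. GC and length trends called 1 enriched and 1 depleted with or without the replicate block, 1 and 1 with input replicate 1 also left out (*Sox12* and *Klf7*), and 1 and 2 with input replicate 2 left out (*Atoh7*, then *Klf7* and *Sox12*). Leaving out single libraries gave 0 to 1 factor enriched and 0 to 1 depleted.

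Signs changed for factors near 0, none of them called in a fit on all 4 libraries. Library size alone gave 0.24 for *Pou4f1*, 0.067 for *Isl1*, 0.33 for *Ebf1*, 0.29 for *Ebf3*, 0.23 for *Sox11* and 0.26 for *Sox12*. In the same order log2(FPKM + 0.1), filtered or not, gave 0.21, 0.047, 0.22, 0.16, 0.40 and 1.12, and log2(FPKM + 1) gave 0.10, 0.0086, 0.065, 0.082, 0.30 and 0.80. *Ebf1* was at 0.0038 with DESeq2 and at 0.064 without a count filter, where *Ebf3* was at 0.015. The replicate block gave 0.033 for *Ebf1*, 0.14 for *Sox11* and 0.89 for *Sox12* and changed no call of a factor. Trends gave 0.19 for *Isl1*, -0.054 for *Sox4* and 0.27 for *Sox12* with the block, 0.18 for *Isl1* and -0.091 for *Sox4* without it, -0.39 for *Sox4* and 2.08 for *Sox12* without input replicate 1, and 0.24 for *Pou4f1*, 0.47 for *Isl1* and 0.054 for *Sox11* without input replicate 2. With 1 library left out, values ran from -0.50 to 0.48 for *Pou4f1*, -0.54 to 0.17 for *Isl1*, -0.31 to 0.38 for *Ebf1*, -0.21 to 0.22 for *Ebf3*, -0.67 to 0.95 for *Sox11* and -1.07 to 2.89 for *Sox12*.

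Counts for the network, relatives and RGC marker lists are given for fits on all 4 libraries. They also moved when a library was left out, where 1 group has no spread of its own. Network factors called enriched (1 in the main test) numbered 2 with library size alone and edgeR's exact test. They numbered 0 with log2(FPKM + 1), unfiltered log2(FPKM + 0.1) and the adjusted p. Those called depleted (5) numbered 3 with library size alone and log2(FPKM + 0.1), 1 with log2(FPKM + 1), 2 with unfiltered FPKM and the adjusted p, 8 with trends without input replicate 2, and 2 to 7 with a library left out (2 without either RIP replicate, 7 without input replicate 2). Relatives called enriched (3) numbered 2 to 4 over the alternatives. Those called depleted (2) numbered 1 with at least 10 counts, both trend fits and log2(FPKM + 0.1), and 0 with log2(FPKM + 1). RGC markers called depleted (6) numbered 2 with log2(FPKM + 1), and those called enriched stayed at 0.

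Over all tested genes, 1286 were enriched and 2344 depleted, against 2359 and 1725 with library size alone, 1797 and 2140 with log2(FPKM + 0.1), 386 and 1055 with log2(FPKM + 1), 1270 and 1549 with trends, 1230 and 1489 with trends and the replicate block, 1401 and 1490 with trends without input replicate 1, and 670 to 2097 and 1562 to 2613 with a library left out. The causes were not tested. Depth limits *Pou4f2* most, with 31 counts in RIP replicate 2, and the spread between the inputs limits *Sox11* and *Sox12*.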
